A study of Mus musculus with 2 samples.

Results

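The genes described here encode the proteins of the cytosolic ribosome, the particle that translates nuclear-encoded messages. They were taken by symbol from the gene tables of the deposited matrices: symbols that begin with Rpl or Rps and a number, Rplp0 to Rplp2, and Rpsa, without S6 kinases and pseudogenes. The rule gave 86 of 30905 genes, 52 with large subunit symbols and 34 with small subunit symbols. It used no measured value. The symbol rule does not test function, and at least 1 gene that it took, Rps19bp1, encodes a protein that binds Rps19 rather than a ribosomal protein. Fau, whose ribosomal protein is cut from a ubiquitin-like fusion, and Rack1, a scaffold on the small subunit, lie outside the rule and are given separately.

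Each ribosome carries one copy of most of these proteins, and cells make them in matched amounts from some of the most abundant messages they hold. Many of these messages begin with a run of pyrimidines, the 5′ terminal oligopyrimidine (TOP) tract, through which mTORC1 and Larp1 adjust their translation. In T cells, output of ribosomal proteins and ribosomal RNA climbs when a resting cell is activated and grows. PRMT5 is the main enzyme that places symmetric dimethyl groups on arginines of histones, splicing factors and other proteins, and Rps10 is among its known substrates.

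The study compared splenic T cells of Prmt5 CKO mice with those of control mice. The titles name one sample Prmt5-CKO (CRE) and the other Control (WT). The genotype field reads CD4-Cre+ PRMT5fl/fl for both samples, so the groups rest on the titles, and the genotype of the controls beyond "WT" is not stated. A CD4-Cre transgene deletes a floxed gene in developing T cells before the CD4 and CD8 lineages part, so both lineages carry the deletion. All mice were of the C57BL/6 strain. Spleen cells sorted as CD3+ were profiled in droplets with the 10x Genomics 3′ kit V3.1, as 1 library for each group. Cells of the 3 mice that the design text gives a group cannot be told apart in the files. No test across replicates exists, and genotype and library cannot be told apart. Values are unique molecular identifiers (UMIs), each standing for 1 captured message, given as a share of all UMIs or as CPM, which is UMIs scaled to a fixed total. A 3′ library gives a message 1 UMI whatever its length, so CPM was not scaled by length. Intervals in parentheses are exact 95% intervals and cover counting error only.

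The Prmt5 CKO library held 7896 barcodes and 52387620 UMIs, and the control library 7407 barcodes and 48273424 UMIs. A filter on detected genes (500 or more) and on mitochondrial UMIs (below 10%) left 7565 T cells with a median of 6049 UMIs in the CKO library and 6617 with a median of 6288 in the control library. The libraries shared 11 barcodes. Prmt5 itself stood at 4.87 CPM (4.28 to 5.51) in CKO and 15.02 CPM (13.9 to 16.2) in control T cells, so its messages were lower but not absent. Clusters named T cells held a Cd3e UMI in 91.4% to 100% of their cells. B-like cells, set apart by Cd79a, numbered 72 among CKO and 68 among control cells. A doublet caller marked 0 cells in either library and so had not worked, and doublets remain.

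The starts of 7 genes are shown because the results turn on them: Rps27l, the gene with the highest ratio, and its relative Rps27, 4 genes with low ratios, and the PRMT5 substrate Rps10. The letters are 30 bases around the transcription start in RefSeq, build GRCm38.p6, read 5′ to 3′ on the gene's strand. Capitals mark the run of C and T letters found within 5 bases of the start.
Rps27l (chr9:66946071-66946100, + strand): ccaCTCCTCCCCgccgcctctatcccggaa
Rps27 (chr3:90213634-90213663, - strand): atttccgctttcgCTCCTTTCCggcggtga
Rpl12 (chr2:32961697-32961726, + strand): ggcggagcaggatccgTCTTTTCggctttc
Rpl22l1 (chr3:28805493-28805522, + strand): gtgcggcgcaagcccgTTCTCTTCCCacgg
Rps28 (chr17:33824548-33824577, - strand): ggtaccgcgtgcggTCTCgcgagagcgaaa
Rpl5 (chr5:107900513-107900542, + strand): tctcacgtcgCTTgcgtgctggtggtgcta
Rps10 (chr17:27635230-27635259, - strand): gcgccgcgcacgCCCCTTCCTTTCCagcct
The run was 9 letters long in Rps27l and Rps27, 7 in Rpl12, 10 in Rpl22l1, 4 in Rps28, 3 in Rpl5 and 13 in Rps10. In Rps27l and Rpl5 the run ended before the start base and so lay outside the annotated message.

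The start of transcription set ribosomal protein genes apart from other genes in letters alone. A promoter was found for 66 of the 86 genes. A C and T run of at least 8 letters lay within 5 bases of the start in 24 of them, or 36.4%, against 11.4% of 27025 genes with a promoter. Such a run can end before the start base, as in Rps27l, so this is not a count of TOP messages. In windows of 300 bases searched on both strands, CCGGAAGT, the letters of an ETS-type site, occurred in 18.2% of ribosomal protein promoters and 4.31% of all. AAGATGGC, part of a YY1-type site, occurred in 9.09% and 3.19%. GGGCGG, a GC box, occurred in 62.1% and 38.2%, whereas TATAAA occurred in 10.6% and 15.7%. None of these motifs contains another, and a match is a description of letters only. The run did not sort the genes by their ratio between libraries: the 24 measured genes with a long run had a median log2 ratio of CKO over control of -0.05, with 17 lower in CKO, and the 39 with a shorter run had a median of -0.04, with 27 lower.

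Ribosomal protein messages made up a large part of the T cell transcriptome in both libraries. Over all T cells they took 36.7% of CKO UMIs (36.69 to 36.72) and 38.1% of control UMIs (38.08 to 38.11), a log2 ratio of -0.054. Large subunit genes took 19.3% and 19.9%, and small subunit genes 17.4% and 18.2%. CKO minus control was -1.39 percentage points. The spread over cells was far wider than this difference, with an SD of 7.21 points over CKO cells and 7.003 over control cells. The log2 ratio moved by more than 1.5 times with some choices of cells. It was -0.028 under a stricter cell filter, of 1000 genes and 5% mitochondrial UMIs, and -0.029 in cells with 4000 to 8000 UMIs. Without naive-like CD4 cluster 4, of which 1392 cells were CKO and 94 control, it was -0.085. Weighting the types by the CKO makeup gave 36.7% in CKO and 37.6% in control, and by the control makeup 36.9% and 38.1%. Mitochondrial UMIs were lower in CKO too, at 4.36% against 5.17%. With mitochondrial UMIs left out of the total, the log2 ratio was more negative, as given in the closing section. Any other part of theirs in the difference was not tested.

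The share varied more between T cell types than between the libraries within a type. Naive-like CD4, naive-like CD8, memory-like CD8 and interferon-responding-like cells had shares of 37.5% to 39.6% in the CKO library and 38.3% to 42.2% in the control library. Treg-like, memory-like CD4, effector-like CD8, γδ-like and proliferating-like cells had shares of 26.0% to 32.7% in both. All 20 pairs of a type from the first set and a type from the second had the same order in both libraries. These sets were formed after the values were seen. Highest and lowest types were 13.6 points apart in CKO and 16.3 in control, against a largest difference between libraries of 3.28 points within a type. Effector-like CD8 cells, marked by Gzma and Gzmb, had the lowest share in either library, 25.98% in CKO and 25.96% in control. Proliferating-like cells, which held most UMIs per cell, had 26.60% and 26.98%. In cells of 4000 to 8000 UMIs, 12 of the 12 pairs that could be compared kept the order.

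**Figure D1:**
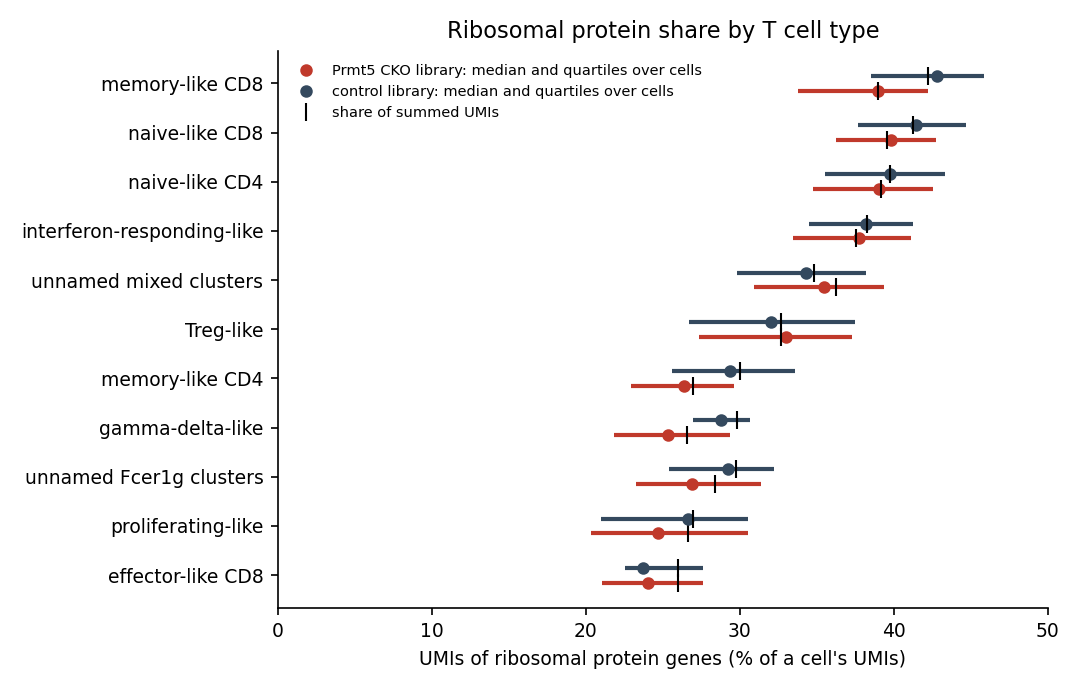
Share of each cell's UMIs that came from ribosomal protein genes, in percent, by T cell type. Points are medians over cells and lines span the quartiles, in red for the Prmt5 CKO library and dark grey for the control library, and ticks are the share of the summed UMIs. Naive-like and memory-like CD8 cells and naive-like CD4 cells lie near 40%, and effector-like and proliferating-like cells near 25%.

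Within types, the share was lower in CKO with an interval off 0 in 8 of 11 types, counting both unnamed groups. Of these, proliferating-like cells turned to a log2 ratio of 0.037 under the stricter cell filter. Gating CD4 cells on Cd4 and Cd8 UMIs gave 0.019 in place of the naive-like CD4 value, but also took in memory-like and Treg-like cells. The largest differences were in memory-like and γδ-like cells. Memory-like CD8 cells had 39.0% in CKO and 42.2% in control, memory-like CD4 cells 26.94% and 29.985%, and γδ-like cells 26.6% and 29.8%, the last from 102 and 18 cells. Whether γδ-like cells and the unnamed Fcer1g clusters carried the Prmt5 deletion was not tested. Naive-like CD8 cells had 39.6% and 41.2%. Treg-like cells, marked by Foxp3, stood at 32.69% and 32.66%, a difference of 0.026 points. Effector-like CD8 cells differed by 0.021 points. The one group that was higher in CKO with an interval off 0 was the unnamed mixed clusters, led by Egr, Tnfrsf9 and Xcl1 genes, at 36.2% against 34.8%. At a clustering resolution of 0.5 their log2 ratio was -0.0026. B-like cells, outside the T lineage, were also higher in CKO, with 32.8% against 29.9%.

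Naive-like CD4 cells fell into 4 clusters that differed in share and in how the libraries filled them. In clusters 5, 6 and 8, which both libraries filled in like numbers, the CKO share was lower, with CKO minus control at -1.46, -1.38 and -1.67 points. Cluster 4, with Pdlim4, Ly6c1 and Dapl1 among its leading genes and mostly of CKO cells, had 40.5% in both libraries. Over all naive-like CD4 cells the shares were 39.2% and 39.8%, a log2 ratio of -0.021, and this small difference turned to 0.019 when CD4 cells were taken by a Cd4 UMI and no Cd8 UMI, which also takes in memory-like and Treg-like cells.

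Shares mostly rose with depth, so the libraries were also compared among cells of like depth. This was done in naive-like CD4, naive-like CD8, memory-like CD8 and Treg-like cells. The other types, memory-like CD4 and γδ-like cells among them, were not compared in these depth classes. Naive-like CD4 cells with 2000 to 4000 UMIs had 34.0% in CKO and 35.3% in control, and those with 8000 to 12000 UMIs had 41.0% and 41.1%. Their CKO share was lower in all 4 depth classes, with CKO minus control from -1.39 to -0.17 points. Naive-like CD8 cells were lower in the same 4 classes, with -2.36 to -1.12 points, and so were memory-like CD8 cells, with -5.74 to -2.26 points, the first of these from 10 CKO and 6 control cells. Treg-like cells were higher in CKO in 3 of the 4 classes.

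The balance between the subunits also followed the T cell type. In the control library, naive-like CD4 cells held 1.07 large subunit UMIs per small subunit UMI and effector-like CD8 cells 1.18. In the CKO library the same types held 1.07 and 1.23. The ratio was higher in CKO in 8 of 11 types. Effector-like CD8 cells (log2 ratio 0.06), memory-like CD4 cells (0.05) and memory-like CD8 cells (0.04) differed most. Over all T cells it was 1.104 in CKO and 1.098 in control, a log2 ratio of 0.0078, and without cluster 4 it was 0.019. These are ratios of messages, and they say nothing of the proteins, which the particle holds in fixed numbers.

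**Figure D2:**
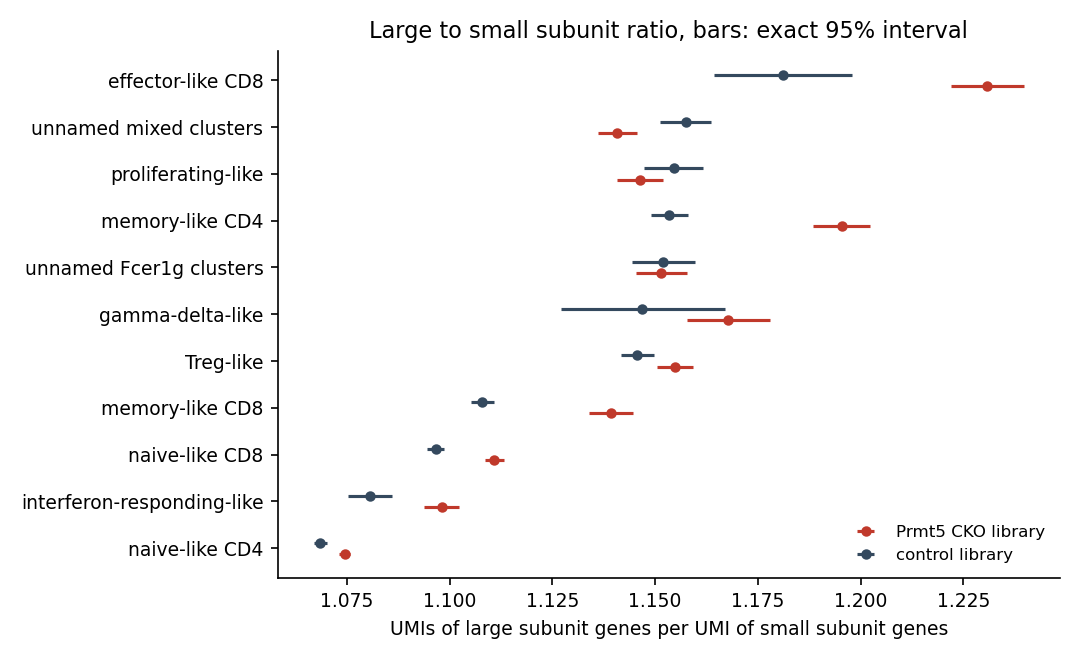
UMIs of large subunit genes per UMI of small subunit genes, by T cell type, in the Prmt5 CKO library (red) and the control library (dark grey). Points are ratios of summed UMIs and bars are exact 95% intervals for counting error. Naive-like CD4 cells are lowest at 1.07 in both libraries, and effector-like CD8 cells are highest, at 1.23 in CKO and 1.18 in control.

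Of the 86 genes, 83 were measured in all T cells, with a mean of at least 20 CPM and at least 100 UMIs. Their levels spanned more than 400-fold: the highest was 414 times the lowest in CKO and 456 times in control, with medians of 4429 and 4551 CPM. The lowest was Rps19bp1 (29.4 and 28.0 CPM), which is not a ribosomal protein, so the span without it was smaller. Next lowest was Rpl7l1, at 41.7 CPM in CKO and 39.0 in control. Rps24, a small subunit protein, led with 12148 CPM in CKO and 12753 in control. Rps29 (9619 and 10658 CPM), Rps15a, Rps27 and Rplp1, one of the acidic stalk proteins, followed. The 5 genes with most UMIs held 12.4% of ribosomal protein UMIs in CKO and 12.8% in control. Only 7 measured genes in either library lay under 1000 CPM, among them the paralogs Rps27l, Rpl36al and Rpl7l1. Rpl39l, a paralog of Rpl39 known from the male germ line, had 64 UMIs in CKO and 109 in control T cells, too few to be counted as measured. Rpl10l, known from testis, and Rpl3l, known from muscle, had 0 UMIs in both libraries, with intervals that reach 0.072 CPM in CKO and 0.079 in control.

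Most ribosomal protein messages were slightly lower in the CKO library. Over all T cells, 58 of 83 were lower and 25 higher, with a median log2 ratio of -0.038 (quartiles -0.087 and 0.009). Over other settings 47 to 77 genes were lower, and the median was -0.017 under the stricter cell filter, -0.069 without cluster 4, -0.093 without mitochondrial and ribosomal protein UMIs in the total and -0.089 when scaled to the median gene. Among all 4783 genes measured, 36.5% were lower and 63.5% higher, with a median of 0.051. The large subunit had 34 of 49 lower and the small subunit 24 of 34, with medians of -0.038 and -0.039. Differences were small: at a fold of 1.2, 1 gene was lower (Rps27rt) and 1 higher (Rps27l), where 3.07% of all genes were lower and 10.1% higher by that much. The count lower by 1.2-fold ran from 0 to 4 over other settings. Sums over types of unequal number enter these values, so the same genes are given by type as well.

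**Figure D3:**
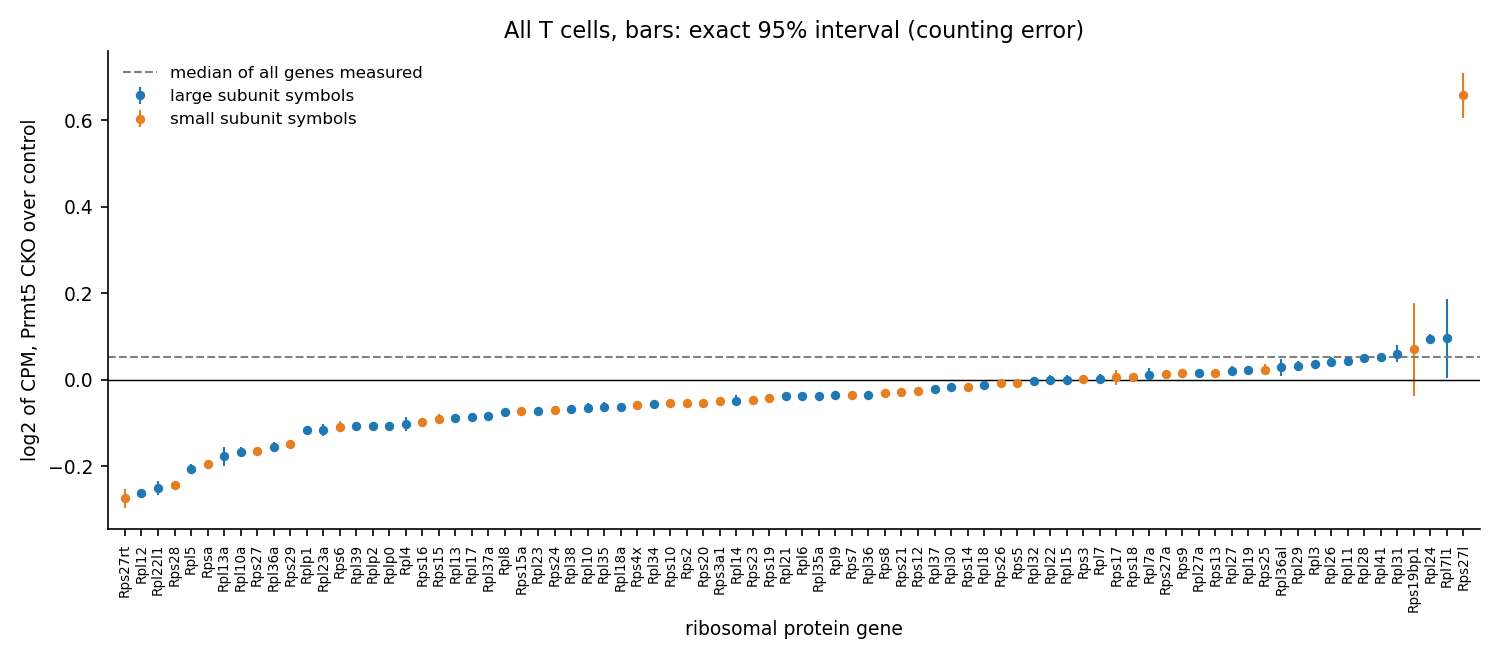
Log2 ratio of CPM, Prmt5 CKO over control, over all T cells, for 82 of the 83 measured ribosomal protein genes in order of the ratio. Points are blue for large and orange for small subunit symbols, bars are exact 95% intervals for counting error, and the dashed line is the median of all genes measured, 0.051. Most points lie between -0.1 and 0.1, and Rps27l stands alone at 0.66.

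Rps27l was the gene that stood farthest from the others. It encodes a close relative of the small subunit protein Rps27 and is known as a transcriptional target of p53. It lies on chromosome 9, and none of the 60-base windows in the last 300 bases of its transcript occurred in another annotated gene. Its level was 155 CPM in CKO (7941 UMIs) and 98.1 CPM in control (4575 UMIs), a log2 ratio of 0.66 (0.60 to 0.71), or 1.58-fold. Over 9 other settings the log2 ratio ran from 0.53 to 0.74. Rps27 itself, with 7730 CPM in CKO and 8673 in control, moved the other way, with a log2 ratio of -0.17. Rps27rt, a retrogene copy of Rps27, had -0.27 from 623 and 754 CPM. Rps27 and Rps27rt share 100% and 88.0% of their 3′ windows, mainly with each other, so how the counting split their reads is uncertain.

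Rps27l was higher in CKO in all 11 T cell types, with an interval off 0 in 10. Levels in naive-like CD4 cells were 101 and 66.1 CPM, in naive-like CD8 cells 154 and 85.9 CPM, in memory-like CD8 cells 144 and 84.3 CPM, and in Treg-like cells 227 and 131 CPM. The largest log2 ratio was 0.999 (0.79 to 1.21), in memory-like CD4 cells, from 223 and 111 CPM. In proliferating-like cells, which had the highest level in both libraries, it was 0.30, from 354 and 288 CPM. γδ-like cells gave 0.25 (-0.42 to 0.98) from 120 and 22 UMIs. Within naive-like CD4 cells the ratio was 0.93, 0.45, 0.53 and 0.62 in clusters 4, 5, 6 and 8, the first from 34 control UMIs. B-like cells held 148 and 141 CPM, a log2 ratio of 0.07 (-0.42 to 0.56). The ratios of T and B-like cells were not tested against each other, and 29.3% of B-like cells held a Cd3e UMI.

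Rpl12, which forms the stalk base of the large subunit, was the lowest among the genes that shared no 3′ window with another gene. It stood at 4781 CPM in CKO and 5733 CPM in control, a log2 ratio of -0.26 (-0.27 to -0.25), and -0.32 to -0.23 over other settings. It was lower in CKO in 10 of 11 T cell types, each with an interval off 0. Naive-like CD4 cells had 5484 and 6488 CPM, memory-like CD8 cells 4836 and 6255, Treg-like cells 3705 and 4512, and memory-like CD4 cells 3191 and 4266. The unnamed mixed clusters were the exception, with 4479 and 4330 CPM. In all 4 naive-like CD4 clusters Rpl12 was lower, with log2 ratios from -0.31 to -0.25, cluster 4 included. B-like cells had 4097 and 3760 CPM, a log2 ratio of 0.12 (0.03 to 0.21).

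Rpl22l1, the paralog that can stand in for Rpl22, a protein needed for αβ T cell development, stood at 1138 and 1353 CPM, a log2 ratio of -0.25. Rpl22 did not share this difference: it had 2578 and 2581 CPM, a log2 ratio of -0.0018 (-0.013 to 0.0095). The Rpl22l1 ratio was -0.41 in Treg-like cells (807 and 1073 CPM), -0.39 in memory-like CD8 cells (1164 and 1527 CPM) and -0.23 in naive-like CD4 cells (1182 and 1381 CPM). Effector-like CD8 cells had 892 and 841 CPM, an interval of -0.12 to 0.29. Pseudogenes that are not in the matrices share 61.8% of its 3′ windows, and their effect on the counts was not tested.

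Rps28, a small subunit protein at the exit channel of the message, was lower in CKO in all 11 types, each with an interval off 0. It stood at 4247 and 5030 CPM over all T cells, a log2 ratio of -0.24. Its ratios ran from -0.08 in the unnamed mixed clusters to -0.49 in memory-like CD4 cells (2662 and 3730 CPM). In B-like cells it was -0.02 (-0.11 to 0.08). Rpl5 and Rpl11 bind 5S ribosomal RNA together and, when free, hold Mdm2, yet they differed in direction. Rpl5 was at 2103 and 2428 CPM (-0.21) and lower in 10 of 11 types, and Rpl11 at 4075 and 3957 CPM (0.04) and higher in 8 of 11. The value for Rpl11 turned to -0.01 when scaled to the median gene. Rpsa, also known as the laminin receptor, had 6377 and 7301 CPM (-0.20), Rpl13a, a subunit of the translation-silencing GAIT complex, 612 and 693 CPM (-0.18), and Rpl10a 2936 and 3297 CPM (-0.17).

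The other genes with the highest ratios are read against the median of all genes, 0.051. Rpl24, a large subunit protein, stood at 2807 and 2629 CPM, a log2 ratio of 0.09, and was higher in 10 of 11 types. Rpl7l1 (41.7 and 39.0 CPM) and Rps19bp1 (29.4 and 28.0 CPM) were at low levels, and the interval of Rps19bp1, -0.04 to 0.18, held 0. Rpl31, Rpl41 and Rpl28 had ratios of 0.06, 0.05 and 0.05. The last 2 of these turned slightly below 0, to -0.0021 and -0.0044, when mitochondrial and ribosomal protein UMIs were left out of the total.

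**Figure D4:**
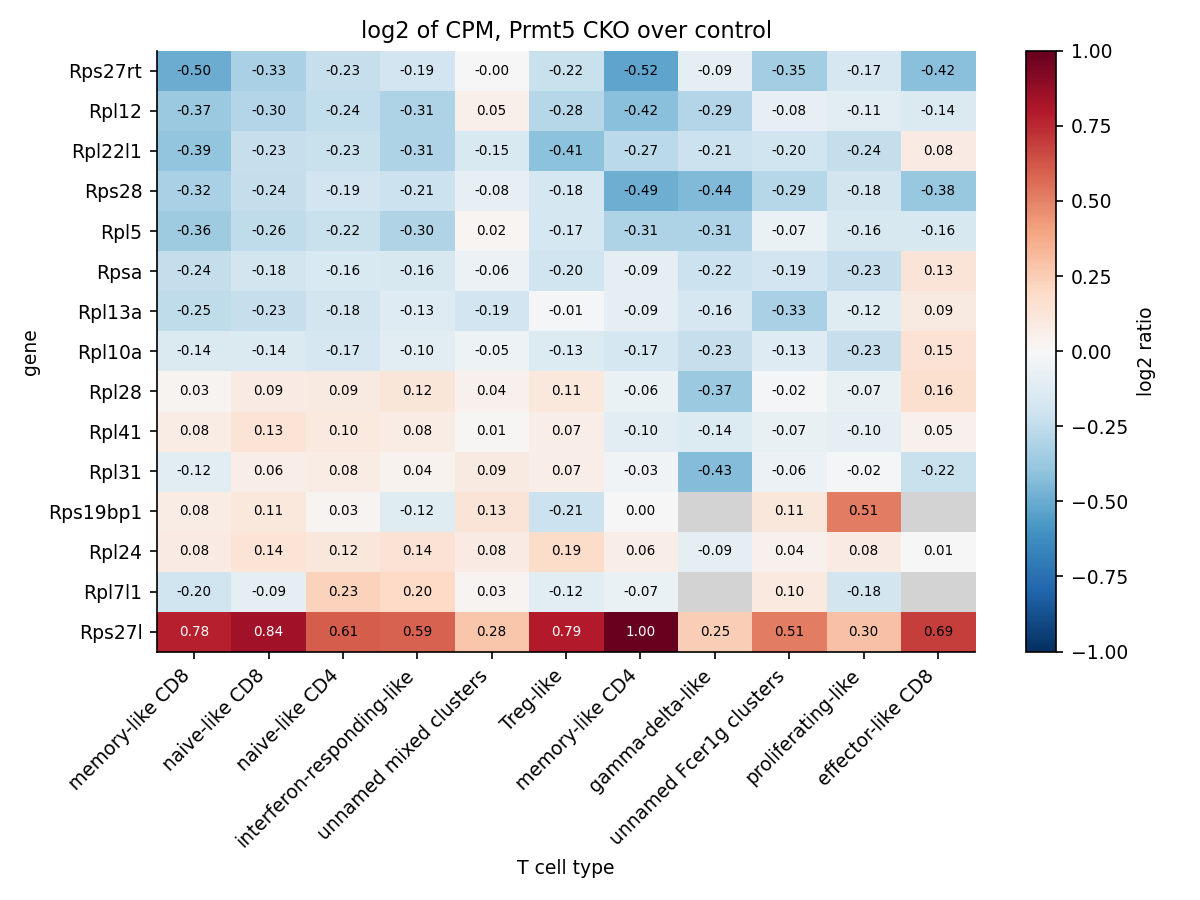
Log2 ratio of CPM, Prmt5 CKO over control, for the 8 genes with the lowest ratio over all T cells and 7 of the 8 with the highest (rows), by T cell type (columns). Blue is lower and red higher in CKO, and grey cells were not measured. Rps27l is red in every type, from 0.25 in γδ-like to 0.999 in memory-like CD4 cells, and Rps28 is blue in every type.

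Other genes fixed for their roles or as paralogs gave these log2 ratios. Rps10, the PRMT5 substrate, had 6174 and 6412 CPM, a log2 ratio of -0.05, near the median of the group. Rps6, the target of the S6 kinases, had 1948 and 2101 CPM (-0.11). Rps2 and Rps3, of the message entry channel, had -0.05 and 0.0018, and Rpl3, next to the peptidyl transferase centre, had 0.04, which turned to -0.02 when scaled to the median gene. The acidic stalk proteins were alike: Rplp0, Rplp1 and Rplp2 had -0.11, -0.12 and -0.11. Rps27a, made as a fusion with ubiquitin, had 0.014, which turned to -0.038 under the same scaling. Among X-linked and paralog pairs, Rpl36a had -0.16 and Rpl36al 0.03, Rpl7 had 0.0022 and Rpl7l1 0.09, and Rpl39 had -0.11. Rps4x had -0.06 and Rpl10 -0.07. The values of Rps3 (-0.053 to 0.037), Rpl7 (-0.053 to 0.019), Rpl22 (-0.057 to 0.028) and Rpl36al (-0.026 to 0.040) had either sign over other settings. Some ribosomal protein genes share 3′ windows with copies in the matrices, and their values are uncertain: Rpl36a over 97.1% of windows, Rpl10 100%, Rpl7a 69.3%, Rplp1 61.4%, Rpl36al 60.2% and Rpl41 57.3%. Over all 86 genes, 56 shared at least 1 such window with another annotated gene and 18 with a gene of the matrices.

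The median over ribosomal protein genes was near 0 in some types and below 0 in others. In memory-like CD4 cells 73 of 83 genes were lower in CKO (median -0.13), where 46.5% of all genes were. In memory-like CD8 cells 71 of 83 were lower (-0.11), against 35.7% of all genes, and in naive-like CD8 cells 55 of 83 (-0.05), against 34.6%. Naive-like CD4 cells had 46 of 83 lower (-0.0087), against 40.5%. Of the 81 genes measured in γδ-like cells, 76 were lower (-0.16), against 42.9%. Treg-like cells had 39 of 83 lower (0.0032), against 46.6%, and effector-like CD8 cells 36 of 81 (0.0055), against 48%. Interferon-responding-like cells had 49 lower (-0.011), against 42.6%, and proliferating-like cells 50 (-0.017), against 49.9%. In the unnamed Fcer1g clusters, which hold NK-type receptor genes, 67 were lower (-0.066), against 41.5%. The unnamed mixed clusters differed in direction, with 14 of 83 lower (0.062), against 52.7%.

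The make-up of the ribosomal protein pool differed between T cell types, and the libraries were more alike in this for some types than for others. Among types of at least 100 control cells, the median gene varied 1.39-fold in CPM in the control library and 1.47-fold in CKO. CPM also carry the total ribosomal protein share, so such ranges do not measure make-up alone. In control cells that share was 42.2% in memory-like CD8 and 29.985% in memory-like CD4 cells. In CKO cells it was 39.6% in naive-like CD8 and 26.94% in memory-like CD4 cells. Rps27l varied most, 1.99-fold, from 66.1 CPM in naive-like CD4 to 131 CPM in Treg-like control cells. Rps20 varied 1.77-fold and Rpl36a 1.76-fold, both from memory-like CD8 down to memory-like CD4 cells, and Rps29 1.64-fold and Rps24 1.62-fold. Rps29 and Rps24 were also lowest in memory-like CD4 cells, so the total share enters the ranges of all these genes but Rps27l in the same direction. As a share of ribosomal protein UMIs, Rps27l was above its naive-like CD4 share in the other 8 named types of both libraries, up to a log2 ratio of 2.38 in CKO and 2.69 in control proliferating-like cells. In effector-like CD8 cells Rps29 was lower than in naive-like CD4 cells by 0.58 and 0.45 on the log2 scale, Rps20 by 0.52 and 0.53, and Rpl12 by 0.41 and 0.49. Rpl7a was higher there (0.74 in CKO and 0.59 in control), as was Rpl36al (0.62 and 0.70). Not every gene kept its sign in these cells: Rpl10a had 0.24 in CKO and -0.05 in control. The Pearson correlation between the libraries of such log2 ratios over genes differed by type. It was 0.99 in proliferating-like, 0.91 in effector-like CD8, 0.76 in γδ-like and 0.59 in interferon-responding-like cells. All types of a library share its reads and depth, so the likeness of both libraries is a description.

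Outside the symbol rule, Fau had 7016 and 6764 CPM over all T cells (0.05) and Rack1 2372 and 2567 CPM (-0.11). Proteins of the mitochondrial ribosome, which translates messages of the mitochondrial genome, moved the other way from the cytosolic ones. Of 78 listed, 71 were measured: 63 were higher and 8 lower in CKO (median 0.17), where 63.5% of all genes were higher. At a fold of 1.2, 13 were higher, where 10.1% of all genes were. Mrps7 stood at 56.3 and 40.9 CPM (0.46), Mrpl28 at 53.0 and 38.9 CPM (0.45), Mrpl54 at 96.8 and 76.7 CPM (0.34) and Mrpl43 at 90.8 and 72.1 CPM (0.33). In naive-like CD4 cells 59 of 68 were higher and in naive-like CD8 cells 55 of 67, where 59.5% and 65.4% of all genes were. In Treg-like cells 41 of 68 were higher, a share near the 53.4% of all genes. Mitochondrial ribosomal proteins are far less abundant than cytosolic ones, and the part of expression level in this difference was not tested.

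Other lists of the translation machinery are read against the 63.5% of all genes that were higher over all T cells, with a median of 0.051. Of 30 initiation factors, 21 were higher (median 0.05), with Eif4g1, the scaffold of cap binding, at 102 and 76.1 CPM (0.42) and Eif6, which keeps the subunits apart, at 110 and 88.7 CPM (0.31). The elongation factor list, which also holds genes of other roles (Naca, Btf3, Tpt1 and Eef1e1), had 5 of 10 higher (0.0075). Among its other genes, Eif5a (0.19) and Eef1d (0.10) were higher. Eef1a1 (-0.08), Eef1g (-0.06), Eef2 (-0.05) and Eef1b2 (-0.02) were lower. The RNA polymerase I list had 11 of 13 measured genes higher (0.14), but it includes Polr1c, Polr1d and Polr2 subunits shared with other polymerases. Of its other genes, Cd3eap (0.19) and Znrd1 (0.15) stood above the median of all genes. Polr1a (0.011), Taf1d (0.015), Ubtf (-0.05) and Twistnb (-0.02) stood below it. Of 31 measured ribosome biogenesis genes, 19 were higher (0.05), with Nop10, of the pseudouridine-guiding particles, at 330 and 263 CPM (0.33). In Treg-like cells biogenesis genes had 21 of 28 lower, where 46.6% of all genes were, with a median of -0.11 and Gnl3, a nucleolar GTPase, at 47.6 and 84.4 CPM (-0.83). mTORC1 and S6 kinase genes had 4 of 8 measured genes higher, among them Rheb (0.28) and Rps6kb1, the S6 kinase (0.25), and Pdcd4, an inhibitor of initiation that S6 kinase marks for decay, at -0.20.

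**Figure D5:**
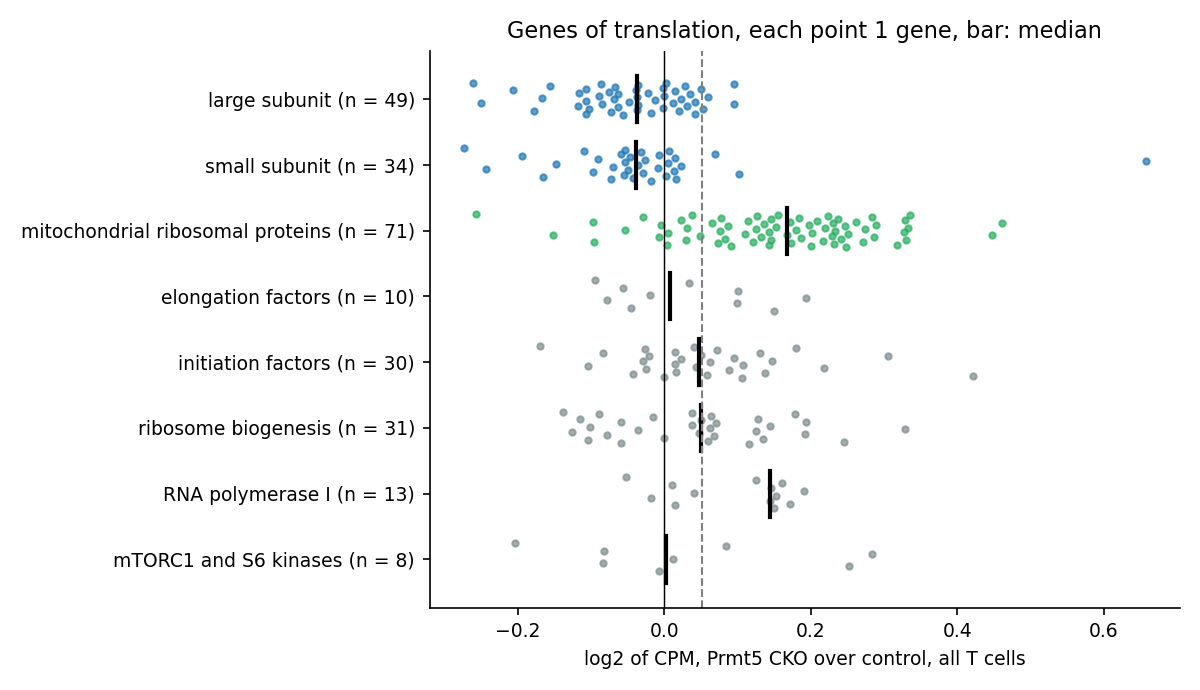
Log2 ratio of CPM, Prmt5 CKO over control, over all T cells, for genes of the translation machinery by list. Each point is 1 gene, black bars are medians, the solid line is 0 and the dashed line is the median of all genes measured, 0.051. Large and small subunit genes have medians of -0.038 and -0.039, and mitochondrial ribosomal proteins 0.17.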

How the data were processed

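The deposited matrices hold counts, as whole UMIs per gene and barcode, which the authors made with Cell Ranger 3.1.0, per the file headers and the submitters' processing notes. CASAVA 1.8, Seurat 2.3.4 and mm10 are named in the notes without a role. Cells with fewer than 500 genes, or with 10% or more mitochondrial UMIs, were dropped. Scrublet called 0 doublets at an expected rate of 6%. Both libraries were clustered together in scanpy 1.11.5 on 2000 variable genes, with 30 components, 15 neighbours, Leiden resolution 1 and seed 1. Ribosomal and mitochondrial genes and those of antigen receptors were left out of the clustering. Clusters meeting no naming rule were divided again at resolution 0.8. Names rest on fixed markers, and the percentages of cells that turn markers into names were set with the clusters known.

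UMIs were summed per type and library. CPM carry exact Poisson intervals, shares Clopper-Pearson intervals and ratios conditional binomial intervals, all at 95%. A gene was measured with a mean of at least 20 CPM and at least 100 UMIs in the cells compared. The fold threshold was 1.2. The interval code was tested on simulated data. The floor for a count of 0 was 3 UMIs. Gene positions and transcripts came from GENCODE vM21, and promoter letters from RefSeq. Genes named were the 8 highest and 8 lowest ratios over all T cells, the 4 highest and lowest in naive-like CD4, naive-like CD8 and Treg-like cells, the 5 with most UMIs, the 5 that varied most over types, and a fixed set of paralogs and proteins of known roles. In other lists up to 4 genes with the largest ratios were taken. Rpl7a was chosen after its values were seen. The genes and lists were chosen with earlier results of these data known. Alternatives changed the cell filter, doublets, depth, gates, clusters, denominators, scaling and clustering. A variant with another membership of the group, 1 gene named by the rule and 1 gene of the other lists are not reported here.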

Additional observations from a re-analysis of the deposited data

Results flagged for a closer look

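The unnamed mixed clusters, led by Egr, Tnfrsf9 and Xcl1 genes, went the other way from the 8 types with a lower ribosomal protein share in CKO. Their log2 ratio of CKO over control was 0.057, from 36.2% of 2472755 UMIs in CKO and 34.8% of 1551216 UMIs in control. The difference from the other types was not tested, since each group is 1 library. At Leiden resolution 0.5 the value was -0.0026. Median depth was 7774 UMIs in CKO and 8123 in control cells of these clusters.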

How the results depend on the processing

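No paired analysis was possible because each group is 1 library. Log2 ratios of the ribosomal protein, large subunit and small subunit shares over all T cells kept their sign in every setting run. They were -0.028, -0.026 and -0.030 under a stricter cell filter (1000 genes and 5% mitochondrial UMIs), -0.039, -0.035 and -0.043 over all barcodes, and -0.056, -0.052 and -0.060 without the highest 6% of doublet scores. In cells of 4000 to 8000 UMIs they were -0.029, -0.023 and -0.036, and without cluster 4 they were -0.085, -0.076 and -0.095. Without mitochondrial UMIs in the total they were -0.066, -0.062 and -0.070, and without ribosomal protein UMIs too -0.109, -0.105 and -0.113. Gates on Cd4 and Cd8 gave -0.052 and -0.048 for the whole and the large subunit, means over cells -0.052 and -0.047. The ratio of large to small was 0.0039 with the stricter cell filter, 0.0125 in the depth window, 0.019 without cluster 4 and 0.0097 as a mean over cells. The median over ribosomal protein genes was -0.017 with the stricter filter, -0.023 in the depth window, -0.069 without cluster 4, -0.093 without mitochondrial and ribosomal protein UMIs and -0.089 under median-of-ratios scaling. Genes lower by 1.2-fold numbered 0 with the stricter filter, over all barcodes and in the depth window, 2 without mitochondrial UMIs and with all genes that had a UMI in each library, 3 without cluster 4, and 4 without ribosomal protein UMIs and under median-of-ratios scaling. Of 20 ordered pairs of types, the depth window left 12, all in order, because fewer types had enough cells. Without mitochondrial and ribosomal protein UMIs, and under median-of-ratios scaling, signs turned for Rpl11 (-0.012 and -0.0090), Rpl19 (-0.032 and -0.029), Rpl28 (-0.0044 and -0.0010), Rpl3 (-0.020 and -0.016), Rpl36al (-0.026 and -0.023) and Rps27a (-0.041 and -0.038), and in the first of these for Rpl41 (-0.0021). Rps3, Rpl7 and Rpl22, near 0, also had either sign over settings. Without cluster 4, Rpl19 was -0.0047 and Rps27a -0.010. By type, the proliferating-like value was 0.037 with the stricter filter and the unnamed mixed value -0.0026 at resolution 0.5. Gated CD4 cells, which include memory-like and Treg-like cells, gave 0.019 in place of the naive-like CD4 value. The causes were not tested. The stricter filter left 5639 CKO and 3060 control T cells. Settings for the mitochondrial ribosomal proteins, the count of genes lower by any amount and the order of types were chosen after seeing the data. Those counts ran from 54 to 69 and from 47 to 77.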
